A study of Mus musculus with 3 samples.

Results

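The top fraction of a polysome gradient holds RNA that sediments above the polysomes, that is, free mRNA and mRNA with few or no ribosomes. The genes described here are those whose RNA was measured in that fraction from cells given Eif4g3 siRNA and from cells given control siRNA. A gene was a member when a non-control probe of it stood well above background in both colour channels of the top fraction array, by the flags of the scanner software, and carried no outlier mark. Of 27745 gene names on the array, 10943 were members. Stromal cells cultured from BALB/c lymph nodes were transfected with 400 pmol of either siRNA, with a change of medium after 24 h and harvest after 48 h. For each siRNA, 7 plates made up 1 pool, and each pool was run on a 10% to 60% sucrose gradient. RNA of the top fraction was labelled, with 200 ng per labelling, in Cy5 (red) for the Eif4g3 siRNA and in Cy3 (green) for the control siRNA, and both were hybridised to 1 Agilent array. There was no replicate and no dye swap, so a difference between the siRNAs cannot be told apart from a difference between these pools, gradients or dyes. No test was made and no p-value is given.

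Both groups share strain, culture and protocol, and differ in the siRNA, in the dye and in the gradient run. The cells were a stromal culture and not a purified cell type. All 8 markers in a short list for fibroblastic stromal cells were measured. Control and Eif4g3 siRNA signals were 11264 and 11036 for Pdgfrb, 642 and 398 for Vcam1, 262 and 173 for Pdpn, and 197676 and 138312 for Thy1. Col1a1 was the member of this short list with the higher signal after Eif4g3 siRNA, at 24417 and 25107. None of 6 endothelial, 6 leukocyte or 4 epithelial markers in the short lists was measured in the top fraction, where their control signals lay between 13.0 and 52.3. Of 5 markers of smooth muscle and pericytes, Acta2, a smooth muscle actin, and Cspg4 were measured, and Myh11, Des and Rgs5 were not. Longer lists of markers gave 15 of 17 measured for fibroblastic stroma, with 2 above 0 and a median log2 ratio of -0.11. They gave 2 of 18 for endothelium (Egfl7 and Flt1), 5 of 22 for leukocytes (Csf1r, Fcer1g, Coro1a, H2-Ab1 and Lyzs) and 2 of 12 for epithelium (Cldn3 and Krt19), with median control signals of 457, 99.9 and 445. No member of these longer lists passed 2-fold, and the part of other cell types in the results was not tested. The top array was dim: 14338 of 41174 probes (34.8%) were measured in both channels. The upper-quartile mean signal, with background not subtracted, was 67.2 in the control and 78.3 in the Eif4g3 siRNA channel. The median net signal, with background subtracted, was 10.6 and 6.1. In bulk RNA, fewer cells with an mRNA and less of it per cell cannot be told apart.

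Eif4g3 encodes eIF4GII, a scaffold that links the cap-binding protein eIF4E, the helicase eIF4A and the small ribosomal subunit through eIF3, so that ribosomes are recruited to capped mRNAs. Its paralogue eIF4GI, the product of Eif4g1, fills the same place in the complex. An mRNA that is poorly initiated carries few ribosomes and stays near the top of a gradient. An mRNA's amount in the top fraction depends both on its distribution along the gradient and on its total amount in the cell, and total RNA was not analysed here.

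Values are log2 ratios with the Eif4g3 siRNA channel over the control channel, so that 1 is 2-fold higher after Eif4g3 siRNA. They were computed from background-corrected signals with an offset of 50, which draws ratios of dim probes towards 0. Beside them stand the scanner software's own ratio with the software's error, which covers the spot and not biology, and the software's processed signals in arbitrary units. These signals are normalized for dye by the software and give its ratio, not the log2 ratio quoted first. Among all members, the median log2 ratio was 0.0016, the SD 0.28 and the central 95% ran from -0.59 to 0.61. A total of 47 genes (0.429%) were higher and 29 (0.265%) lower at 2-fold, and 50.4% of all members lay above 0. By the software's ratio 151 genes were higher and 146 lower. Spread within the array is given here as SD, to be set beside the SD of 0.28 over all members. The SD over repeated spots of 1 probe had a median of 0.057 and a maximum of 0.11 over 118 probes. The SD between different probes of a gene had a median of 0.11 and a 90th percentile of 0.29 over the 2763 genes with several probes. The other 8180 genes had 1 probe and no such value. Spread from labelling, gradients and RNA preparation was not measured. Of the 47 higher genes 42 rested on 1 probe, and of the 29 lower genes 24 did.

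**Figure D1:**
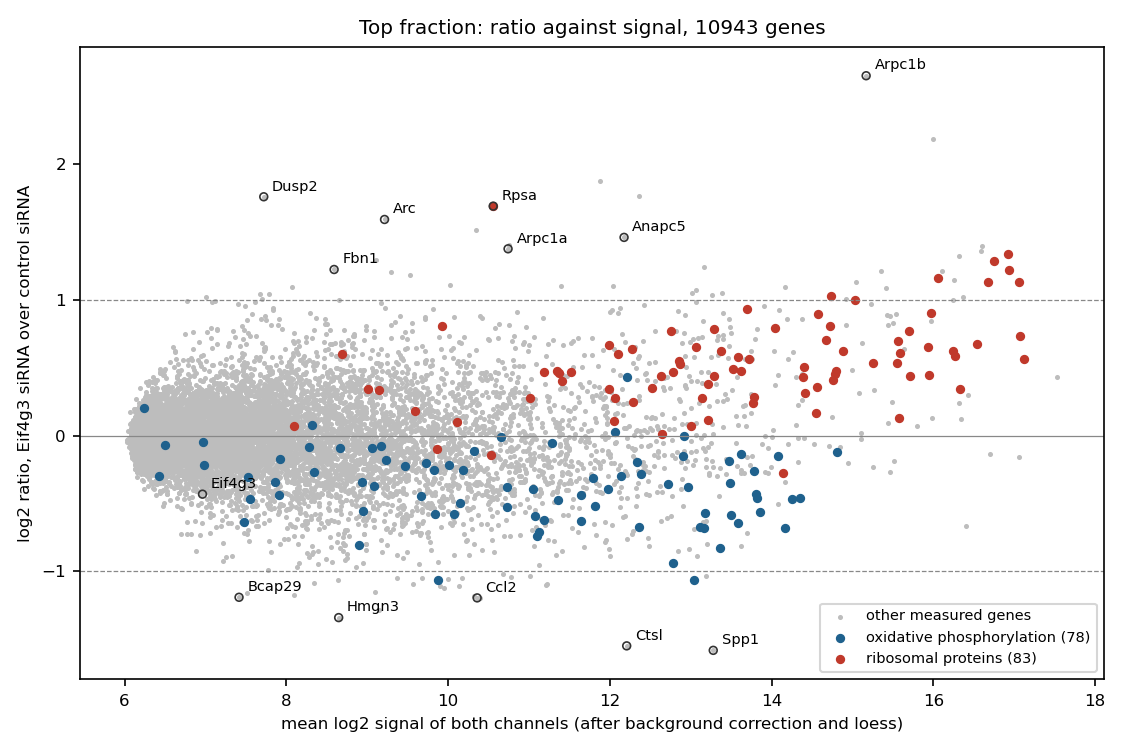
Each point is 1 of 10943 genes in the top fraction, with the mean log2 signal of both channels on the x axis and the log2 ratio (Eif4g3 siRNA over control) on the y axis; dashed lines mark 2-fold. Ribosomal protein genes (red, 83) lie mostly above 0, oxidative phosphorylation genes (blue, 78) mostly below 0, and ratios of dim genes on the left are compressed.

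The siRNA target was lower in the Eif4g3 siRNA pool, short of 2-fold. Eif4g3 had processed signals of 546 (control) and 313 (Eif4g3 siRNA). Its log2 ratio was -0.43 and the software's was -0.80 ± 0.16. The probes of Eif4g3 lie on the plus strand of chromosome 4 (mm8), at 137475547 to 137478087 and 137478284 to 137478343, and gave -0.34 and -0.52. On the arrays of the other fractions of the same gradients its log2 ratio was -1.06 in light and -1.77 in heavy polysomes. The target was thus lower on each array, by differing amounts. The cell pools were the same for all 3 arrays, so these arrays are not independent samples of the treatment.

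Among the other members of the eIF4F complex, none passed 2-fold in the top fraction. Eif4g1 had signals of 181 and 190, a log2 ratio of -0.04 and a software ratio of 0.07 ± 0.25. Eif4g2, whose product resembles eIF4G but lacks the eIF4E binding site, had -0.28 over 4 probes that ranged from -0.40 to -0.10. Eif4e, the cap-binding protein, had -0.21, and the helicase genes Eif4a1 and Eif4a2 had 0.04 and 0.19. Eif4b, which stimulates the helicase, had 0.46, and its relative Eif4h had -0.11. The eIF4E relatives Eif4e2 and Eif4e3 had 0.33 and -0.02. The 4 measured genes of proteins that bind and restrain eIF4E ran from -0.14 for Eif4ebp1 to 0.14 for Eif4ebp2, with Eif4ebp3 at -0.01 and Eif4enif1 at 0.05.

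Of 20 measured genes of the cap-binding complex, its inhibitors and poly(A) binding, Pabpc1 and Pabpc4 had the highest ratios. Pabpc1, the main cytoplasmic poly(A) binding protein and a partner of eIF4G, had signals of 358062 in the control and 611949 in the Eif4g3 siRNA channel and a log2 ratio of 1.22. Its software ratio was 0.77 ± 0.22, below 2-fold, and its log2 ratio without the background filter was 0.78. In light and heavy polysomes Pabpc1 had -0.38 and 0.01. Pabpc4 had 0.87, with a software ratio of 1.14 ± 0.16, and -0.39 and -0.11 in light and heavy polysomes. Both genes were therefore above 0 in the top fraction, below 0 in light polysomes and closer to 0 in heavy polysomes. The nuclear Pabpn1 had 0.18, and the poly(A) binding partners Paip1, Paip2b and Paip2 had 0.13, -0.06 and -0.20. Of 35 measured genes of other initiation factors 22 lay above 0, with a median of 0.11 and none past 2-fold. The highest of them were Eif3s5, now named Eif3f, at 0.68, Eif5 at 0.64, Eif3s3 at 0.43 and Eif3s6 at 0.42. The lowest were Eif5a, a factor of elongation and termination, at -0.36, Eif2b1 at -0.29, Eif1 at -0.21 and Eif2s2 at -0.19.

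Ribosomal protein mRNAs were mostly above 0 in the top fraction after Eif4g3 siRNA. Of 83 measured genes of cytosolic ribosomal proteins 80 lay above 0, against 50.4% of all members, and 9 passed 2-fold, against 0.429%. In the brightest 1% of members lay 8 of these 9, out of 38 ribosomal protein genes there. Outside ribosomal proteins and oxidative phosphorylation, 13 of the 67 genes in that class were higher at 2-fold too. Of those 67 genes 35 have a gene symbol, and 3 of these 35 were higher at 2-fold. The median of the 83 ribosomal protein genes was 0.49, with 0.51 for the 50 genes of the large subunit and 0.48 for the 33 of the small subunit. With the software's ratio the median was 0.30, 72 of 83 lay above 0 and 1 gene, Rpsa, passed 2-fold. In light and heavy polysomes the same genes had medians of 0.09 and 0.29. The 3 members below 0 were Rps27l (-0.28), which encodes a variant of the small subunit protein of Rps27, Rpl36al (-0.14) and Rpl21 (-0.10).

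Rpsa, which encodes a small subunit protein, had the highest ratio of the ribosomal genes. Its signals were 5098 in the control and 17677 in the Eif4g3 siRNA channel, its log2 ratio was 1.69 and its software ratio 1.79 ± 0.19. Its probes lie on chromosome 9 (mm8) at 119977169 to 119977228 and at 119980547 to 119980606, and gave 1.84 and 1.54. Rpsa had 0.24 in light and 0.01 in heavy polysomes. Rplp1, of the ribosomal stalk, had signals of 640321 and 1060420 and a log2 ratio of 1.34, with a software ratio of 0.73 ± 0.21. Rps12 had 1.28, with signals of 563580 and 951544, and Fau, whose product is cut to release a small subunit protein, had 1.22, with 670008 and 1032910. Their software ratios were 0.76 and 0.62, below 2-fold. Rps2 had 1.16, Rpl12 1.14, Rpl41 1.13 and Rpl5 1.03. Copies of ribosomal protein genes are numerous in the mouse genome, so probes for these genes may also take up RNA from near-identical copies.

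The other mRNAs that are known to begin with a terminal oligopyrimidine tract (TOP), a run of C and T letters through which growth signals control translation, followed the ribosomal proteins in direction. Of 13 such genes, including the elongation factors, 11 lay above 0, against 50.4% of all members, with a median of 0.52. All 13 lay in the brighter 50% of members, with a median control signal of 21027, and the part of signal was not tested. At 2-fold 1 was higher, against 0.429%. That gene was Vim, the intermediate filament protein vimentin, at 1.05 (signals of 38479 and 76313), with a software ratio of 0.99, short of 2-fold. Gnb2l1, now named Rack1, a scaffold protein bound to the small ribosomal subunit, had 0.93, Eef1a1 0.85, Tpt1 0.79, Eef1g 0.67, Eef1b2 0.56 and Eef2 0.52. Below them stood Hnrpa1 at 0.38, Npm1 at 0.29, Naca at 0.23 and Eef1d at 0.07. Btf3 at -0.06 and Nap1l1 at -0.33 were the members below 0.

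The annotated start was read for the 61 ribosomal protein genes and 66 oxidative phosphorylation genes that matched a RefSeq start (GRCm38.p6). A run of at least 5 C or T letters that opened with C at the first transcribed base stood at 823 of 32851 annotated starts (2.51%). It was present in 14 of the 61 ribosomal protein genes (23%), in 4 of the 66 oxidative phosphorylation genes (6.06%) and in 235 of 7790 other measured genes (3.02%). The sequences below run from 30 bases before to 30 bases from the annotated start on, and are shown because they bear the tract in capitals at high ratios; 3 oxidative phosphorylation genes with low ratios and no tract follow.
Fau, chromosome 19, plus strand, 6057917 to 6057976: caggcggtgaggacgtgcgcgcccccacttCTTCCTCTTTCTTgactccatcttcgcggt
Rpl28, chromosome 7, plus strand, 4792935 to 4792994: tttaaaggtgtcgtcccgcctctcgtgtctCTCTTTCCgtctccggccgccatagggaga
Rplp2, chromosome 7, plus strand, 141447621 to 141447680: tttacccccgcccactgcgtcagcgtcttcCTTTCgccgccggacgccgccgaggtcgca
Rpl35, chromosome 2, minus strand, 39005102 to 39005161: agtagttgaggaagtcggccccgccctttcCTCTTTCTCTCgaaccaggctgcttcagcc
Rps6, chromosome 4, minus strand, 86857338 to 86857397: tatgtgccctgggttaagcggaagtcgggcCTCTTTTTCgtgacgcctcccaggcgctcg
Rack1, chromosome 11, plus strand, 48800330 to 48800389: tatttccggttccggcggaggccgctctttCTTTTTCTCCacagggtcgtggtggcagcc
Eif3f, chromosome 7, plus strand, 108934385 to 108934444: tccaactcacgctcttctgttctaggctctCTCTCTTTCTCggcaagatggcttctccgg
Ndufc2, chromosome 7, plus strand, 97399973 to 97400032: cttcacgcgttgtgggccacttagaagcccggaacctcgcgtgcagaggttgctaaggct
Ndufa4, chromosome 6, minus strand, 11907421 to 11907480: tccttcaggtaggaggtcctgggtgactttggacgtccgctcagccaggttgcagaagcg
Ndufb7, chromosome 8, plus strand, 83566728 to 83566787: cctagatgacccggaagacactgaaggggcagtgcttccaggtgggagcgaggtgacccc

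These genes had log2 ratios of 1.22 (Fau), 0.77 (Rpl28), 0.73 (Rplp2), 0.71 (Rpl35), 0.64 (Rps6), 0.93 (Rack1) and 0.68 (Eif3f). Ndufc2, Ndufa4 and Ndufb7 had -1.06, -0.94 and -0.83. The windows were chosen by tract and ratio, not in strict order of ratio, and do not stand for all genes with the tract. Outside the ribosomal proteins, Rack1 and Eif3f, both of translation, are shown. Rbms2 at 0.94, Eps15 at 0.64, Hirip3 at 0.64 and Irf9 at 0.51 also have the tract and are not shown. Ribosomal protein genes with the tract had a median of 0.58 and those without it 0.44, and with the software's ratio 0.28 and 0.30. All 4 oxidative phosphorylation genes with the tract lay below 0, with a median of -0.27, against -0.38 for those without it. Other genes had a median of 0.0021 with the tract, where 118 of 235 lay above 0, and -0.0036 without. The letters CTTTC on the transcript strand within 50 bases either side of the annotated start, a search added after the ratios were known, stood at 12.8% of annotated starts. They were found in 34 of 61 ribosomal protein genes (55.7%) and in 5 of 66 oxidative phosphorylation genes (7.58%). The median of ribosomal protein genes was 0.53 with these letters and 0.44 without them, and that of 911 other genes with them was -0.0051. A RefSeq start need not be the start used in these cells, and a match is a description of the sequence. The share of G and C in the first 50 bases gave medians between -0.015 and 0.0085 over 5 classes of that share.

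The ribosomal protein genes lie among the brightest probes, and their ratios varied with signal. In the brightest 1% of members, 38 ribosomal protein genes had a median of 0.63 and the 67 genes that belong neither to them nor to oxidative phosphorylation had 0.43. With the software's ratio these medians were 0.18 and 0.15. Among those 67 genes, the 35 with a gene symbol had a median of 0.14, and -0.25 with the software's ratio. In the next class, from 95% to 99%, 29 ribosomal protein genes had 0.47 and all 29 lay above 0, while 379 other genes had 0.01. The software's ratio gave 0.34 and -0.03 there. In the class from 90% to 95%, 8 ribosomal protein genes had 0.47 and 528 other genes -0.08. The part of signal in the values of the brightest class was not tested.

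**Figure D2:**
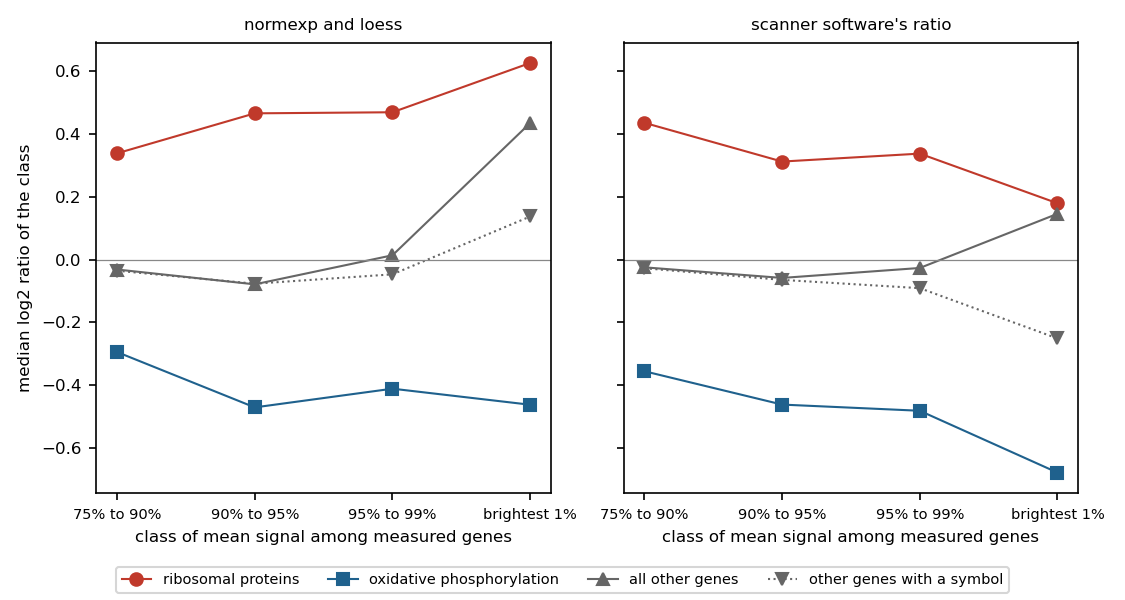
Median log2 ratio in 4 classes of mean signal for ribosomal protein genes, oxidative phosphorylation genes, all other genes and other genes with a symbol; the left panel has the ratios used here and the right panel the scanner software's. In the brightest 1% all other genes stood at 0.43 on the left, near the 0.63 of the ribosomal protein genes, while from 95% to 99% they stood at 0.01 against 0.47.

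The mRNAs of oxidative phosphorylation, the respiratory chain and ATP synthase of mitochondria, were mostly below 0 in the top fraction. Of 78 nuclear-encoded genes measured, 4 lay above 0, against 50.4% of all members, and 2 passed 2-fold in the lower direction, against 0.265%. Their median was -0.36, and -0.46 with the software's ratio. In light polysomes the same genes had a median of -0.03, and in heavy polysomes 0.22 with 59 of 78 above 0. Within this family the medians were -0.37 over 36 genes of complex I, -0.40 over 4 of complex II, -0.21 over 10 of complex III, -0.52 over 12 of complex IV and -0.34 over 16 of ATP synthase. All 5 complexes thus had medians below 0.

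Ndufc2, a subunit of complex I, had signals of 8577 in the control and 3938 in the Eif4g3 siRNA channel. Its log2 ratio was -1.06, with a software ratio of -1.12 ± 0.23, and it had 0.05 in light and 0.13 in heavy polysomes. Ndufb9, another subunit of complex I, had signals of 91672 and 40646, a log2 ratio of -1.06 and a software ratio of -1.17 ± 0.23. Its ratios were -0.72 in light and -0.10 in heavy polysomes. Ndufb7 and Ndufb6 followed at -0.83 and -0.80. Ndufa4, which is counted with complex IV, had -0.94, Atp5g3, a ring subunit of ATP synthase, -0.68, Cox6a1 -0.68 and Cox7a2 -0.67. The 4 members above 0 were Cox7a2l at 0.43, a protein of respiratory supercomplexes, Sdha at 0.21, Ndufv2 at 0.08 and Atp5j at 0.03. Sdha was dim, with signals of 98.6 and 127.

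**Figure D3:**
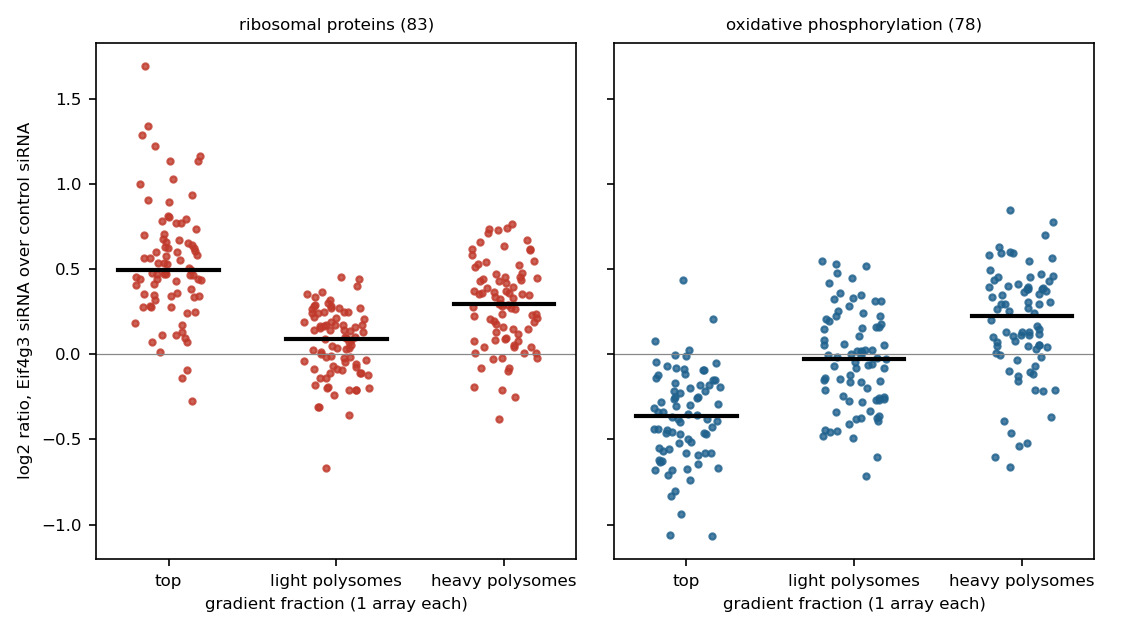
Log2 ratio, Eif4g3 siRNA over control (y axis), of each ribosomal protein gene (left, 83) and each oxidative phosphorylation gene (right, 78) on the arrays of the top, light polysome and heavy polysome fractions; bars are medians. The medians run 0.49, 0.09 and 0.29 for ribosomal proteins and -0.36, -0.03 and 0.22 for oxidative phosphorylation.

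Other nuclear-encoded mitochondrial genes were also mostly below 0. Of 78 measured genes of mitochondrial ribosomal proteins 13 lay above 0, against 50.4% of all members, with a median of -0.21. At 2-fold 3 were lower, against 0.265%. Mrps6 had signals of 12166 in the control and 5219 in the Eif4g3 siRNA channel, a log2 ratio of -1.18 and probes at -1.16 and -1.20. Mrpl3 and Mrpl41 had -1.06 each, and Mrpl14 had -0.84. The highest member was Mrps25, at 0.26. In light and heavy polysomes this list had medians of -0.05 and 0.06. The cytosolic and the mitochondrial ribosomal proteins therefore had medians of opposite sign in the top fraction. Of 27 genes of mitochondrial protein import 6 lay above 0, with a median of -0.19, from Magmas at -0.76 and Grpel1 at -0.71, both of the import motor, to Timm8b at 0.58. Their medians were -0.17 in light and 0.12 in heavy polysomes.

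The genes of protein folding and entry at the endoplasmic reticulum (ER) were mostly below 0. Of 51 measured, 9 lay above 0, against 50.4% of all members, and 3 were lower at 2-fold, against 0.265%. Their median was -0.32 (-0.03 in light, -0.11 in heavy polysomes). Bcap29, an ER membrane protein, had signals of 1364 in the control and 369 in the Eif4g3 siRNA channel and a log2 ratio of -1.19, with a software ratio of -1.89 ± 0.27. It stood at -1.92 in light and -2.19 in heavy polysomes, so it was lower on each array. Fkbp9, a prolyl isomerase of the ER, had -1.05, -0.92 and -1.02 in top, light and heavy fractions. Spcs1, a subunit of the signal peptidase, had -1.03 in the top fraction, -0.21 in light and 0.20 in heavy polysomes. Hspa5, the main ER chaperone BiP, had -0.88. Srp72, of the signal recognition particle, at 0.29 and Hyou1 at 0.28 were the highest members. Of 41 genes of transport between ER and Golgi 10 lay above 0, with a median of -0.21 and none past 2-fold, and values from Sar1b at -0.48 to Copg at 0.74.

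Genes of lysosomes, the proteasome and thiol redox enzymes also had medians below 0. Of 39 genes of lysosomal hydrolases and the vacuolar ATPase 8 lay above 0, against 50.4% of all members. At 2-fold 3 were lower, against 0.265%. Their median was -0.24, and -0.38 with the software's ratio. Ctsl, the protease cathepsin L, had signals of 53561 and 17857, a log2 ratio of -1.55 and a software ratio of -1.58 ± 0.25. It had -0.40 in light and -0.19 in heavy polysomes. Ctla2a and Ctla2b, which encode inhibitors of cathepsin L-like proteases, had -1.29 and -1.17, with probes 38.9 kb apart on chromosome 13 (mm8). They had -1.13 and -1.05 in light and -0.73 and -0.50 in heavy polysomes. Ctla2a and Ctla2b are close copies, so a probe may take up RNA of both.

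Within the proteasome, the core had a lower median than the cap. Of 14 genes of the core, which holds the proteolytic sites, and of its assembly, 1 lay above 0 and the median was -0.53. Of 20 genes of the regulatory cap 11 lay above 0 and the median was 0.05. Psma5, a core subunit, had signals of 22736 and 10826 and a log2 ratio of -1.10, with a software ratio of -1.07 ± 0.23. Psmb6, Psmb5 and the assembly factor Pomp followed at -0.78, -0.74 and -0.72. The highest cap genes were Psmd1 at 0.54 and Psmd4 at 0.24. In heavy polysomes the core had a median of -0.07 and the cap -0.31. Of 26 genes of thioredoxins, peroxiredoxins and their relatives 4 lay above 0, with a median of -0.25, and none passed 2-fold. The lowest were Prdx5 at -0.92, Txn1 at -0.89 and Prdx1 at -0.78, and the highest was Txnrd1 at 0.59.

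**Figure D4:**
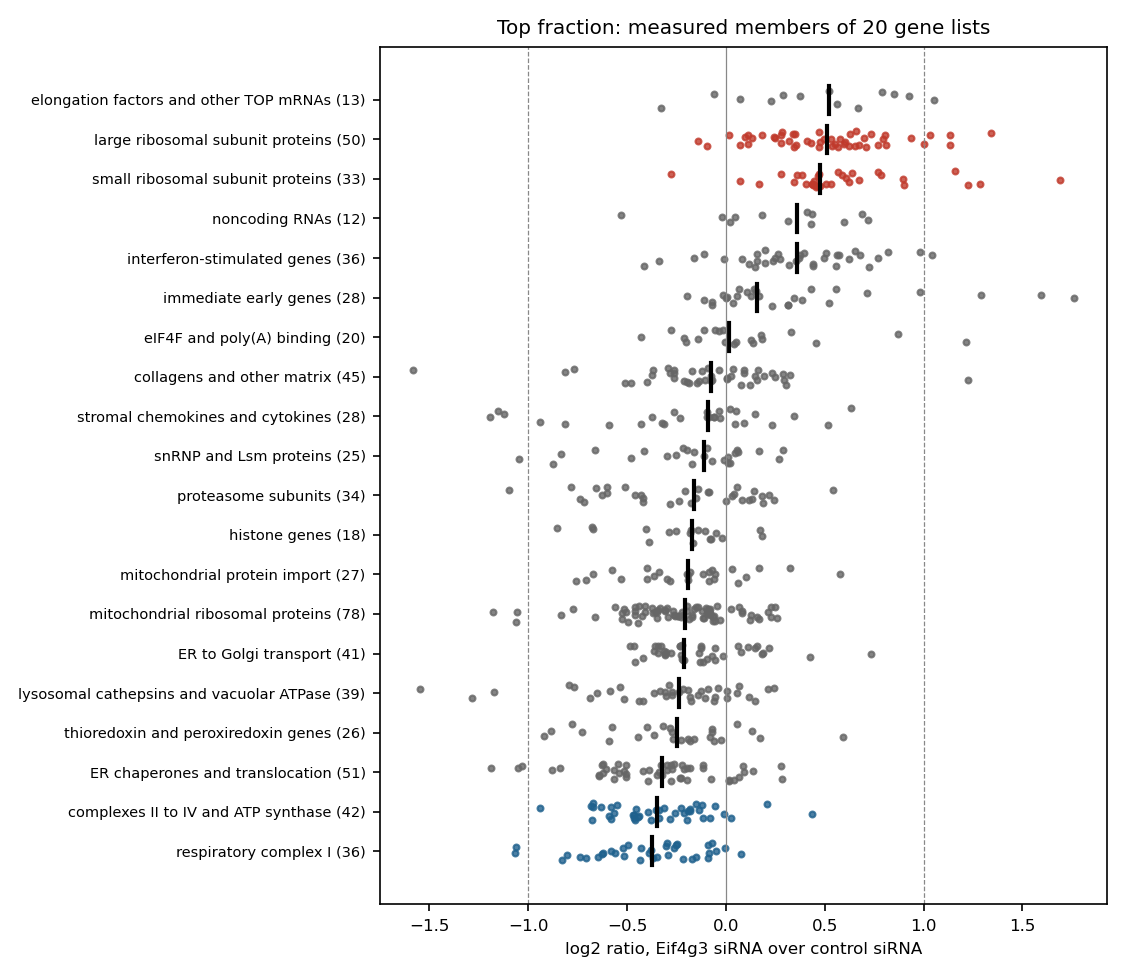
Log2 ratio, Eif4g3 siRNA over control, in the top fraction (x axis) for the measured members of 20 gene lists, 1 point per gene, with the number measured in parentheses; black bars are list medians and dashed lines mark 2-fold. Medians run from -0.37 for complex I to 0.52 for elongation factors and other TOP mRNAs.

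The highest ratio of any gene with a symbol was that of Arpc1b, a subunit of the Arp2/3 complex, which starts branched actin filaments. Arpc1b had signals of 107156 in the control and 530718 in the Eif4g3 siRNA channel. Its log2 ratio was 2.65, with a software ratio of 2.31 ± 0.30, and it had 1.15 in light and 0.81 in heavy polysomes. Its paralogue Arpc1a had signals of 6573 and 18193, a log2 ratio of 1.38 and a software ratio of 1.47 ± 0.24. Arpc1a had 0.14 in light and -0.52 in heavy polysomes. Each rests on 1 probe. The probe of Arpc1a lies at 145360611 to 145361911 and that of Arpc1b at 145381449 to 145381508 on the plus strand of chromosome 5 (mm8), 19.5 kb apart. The other 7 subunit genes did not pass 2-fold. Actr2 had 0.26 and Actr3 -0.01, and these encode the actin-related subunits. Arpc2, Arpc5l, Arpc3, Arpc5 and Arpc4 ran from -0.19 to -0.45. The ratios above 2-fold were thus those of the 2 genes that encode the same position in the complex. Among 35 other actin, myosin and binding protein genes none passed 2-fold, with Cnn1, a calponin of contractile cells, highest at 0.86 and Cfl2, a cofilin, lowest at -0.54.

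Immediate early genes, which are transcribed within minutes of a stimulus, were mostly above 0. Of 28 measured 23 lay above 0, against 50.4% of all members, and 3 were higher at 2-fold, against 0.429%. Their median was 0.16, which was 0.31 over bright probes only. Dusp2, a phosphatase of MAP kinases, had signals of 367 and 2185, a log2 ratio of 1.76 and a software ratio of 2.57 ± 0.31. It had 1.73 in light and 1.87 in heavy polysomes. Arc had signals of 1837 and 6411 and a log2 ratio of 1.59, with 1.30 in light and 0.66 in heavy polysomes. The transcription factor Egr1 had 1908 and 5317 and a ratio of 1.29, with 1.21 and 1.40. These 3 genes were above 0 on each array. Junb followed at 0.98. The lowest members were Jund1 at -0.20, Dusp1 at -0.11, Ier3 at -0.07 and Ier5 at -0.07.

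The ferritin genes had the highest ratios among 9 measured iron-responsive mRNAs, whose translation or stability is set by iron regulatory proteins. Of the 9, 6 lay above 0, against 50.4% of all members. At 2-fold 2 were higher, against 0.429%, and 0 by the software's ratio. Fth1, the ferritin heavy chain, had signals of 423524 and 693544, a log2 ratio of 1.32 and a software ratio of 0.71 ± 0.21. In the brightest 1%, genes outside ribosomal proteins and oxidative phosphorylation had a median control signal of 230123, below that of Fth1, and a median log2 ratio of 0.43. Ftl2 and Ftl1, of the light chain, had 1.05 and 0.97, and software ratios of 0.92 each, short of 2-fold. In heavy polysomes the 3 had 0.36, -0.18 and -0.18. Ftl1 and Ftl2 are close copies and may share signal. Slc11a2, an iron transporter, was the lowest measured member at -0.31, and Tfrc, the transferrin receptor, had -0.05.

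Further genes past 2-fold had varied functions. Anapc5, a subunit of the anaphase-promoting complex, had signals of 18047 and 48212 and a log2 ratio of 1.46, with its probes at 1.42 and 1.50. The other 13 measured genes of that complex and its partners ran from -0.55 for Anapc11 to 0.33 for Cdc16. Ercc1, of DNA excision repair, had 1.24, with -0.13 in light and 0.02 in heavy polysomes. Fbn1, the microfibril protein fibrillin, had 1.23, with 1.49 and 0.96 there, and 0.52 in the top fraction without the background filter, below 2-fold. Anxa8, an annexin measured on 8 spots with an SD of 0.060, had 1.20, with 1.19 and 0.90. Cdk6, a kinase of the G1 phase, had 1.04. Fbn1 and Anxa8 were thus high on each array, and Ercc1 in the top fraction.

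**Figure D5:**
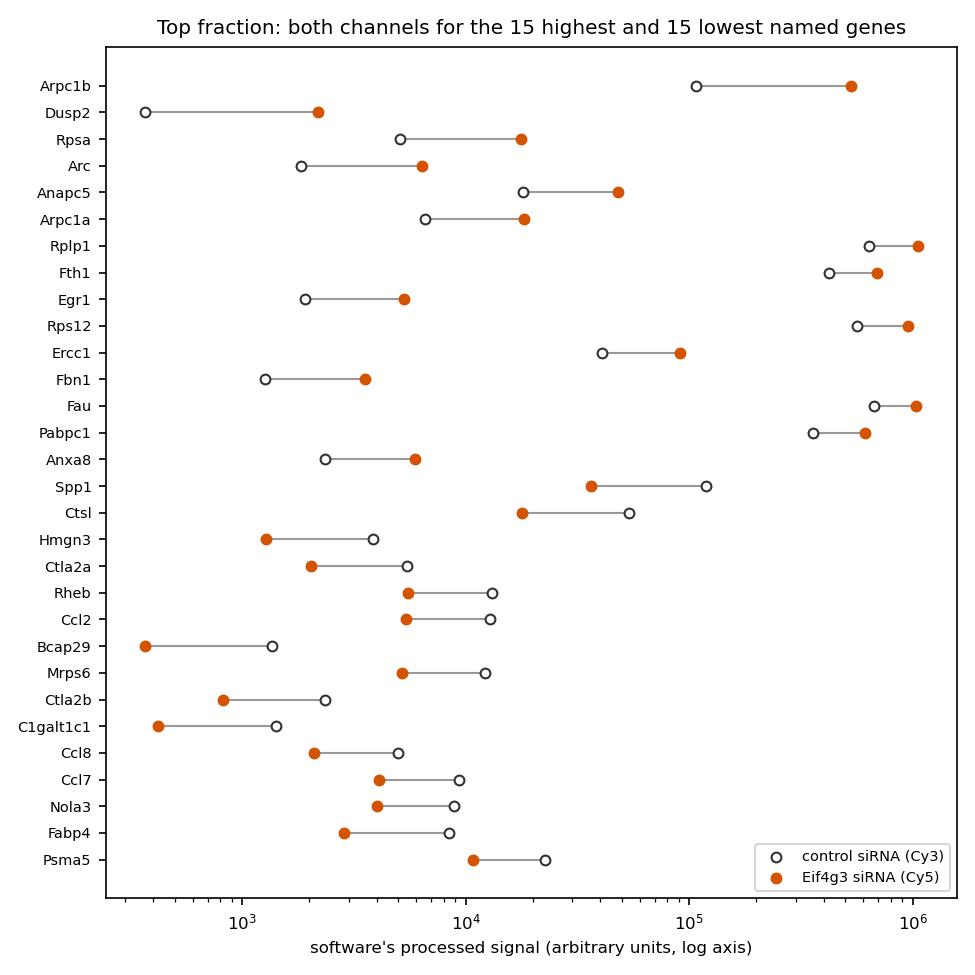
Processed signal of the scanner software (x axis, arbitrary units, log axis) in the control siRNA channel (open circles) and the Eif4g3 siRNA channel (filled circles) for the 15 highest and 15 lowest genes by log2 ratio that met the naming rule, in order. Arpc1b runs from 107156 to 530718 and Spp1 from 118790 to 36544; the gaps of Rplp1, Fth1, Rps12, Fau and Pabpc1 are below 2-fold on this scale.

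The lowest ratio was that of Spp1, the secreted phosphoprotein osteopontin. Its signals were 118790 in the control and 36544 in the Eif4g3 siRNA channel, and its log2 ratio was -1.58, with an SD of 0.036 over 8 spots. It had -1.03 in light and -1.08 in heavy polysomes. Hmgn3, a nucleosome-binding protein, had signals of 3856 and 1274 and a ratio of -1.34, with -1.43 in light and -0.92 in heavy polysomes. Without the background filter Hmgn3 had -0.68, short of 2-fold. Rheb, the small GTPase that activates mTOR complex 1, had 13126 and 5520 and a ratio of -1.20. Rheb had -0.01 in light and 0.09 in heavy polysomes. Spp1 and Hmgn3 were thus low on each array, and Rheb in the top fraction. The other 23 measured genes of mTOR signalling ran from -0.41 to 0.38. Fabp4, a fatty acid carrier, had -1.10, and its 3 probes ranged from -1.50 to -0.56. C1galt1c1, a chaperone of O-glycan synthesis, had -1.16, with a software ratio of -1.75 and, without the background filter, -0.57, short of 2-fold. Nola3, now named Nop10, of box H/ACA ribonucleoproteins, had -1.11.

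Among chemokines of the stroma, which attract leukocytes, 3 neighbouring genes were lower at 2-fold, against 0.265% of all members. Of 14 measured chemokine genes 3 lay above 0, with a median of -0.21, and the whole list of 28 chemokine and cytokine genes had a median of -0.09, and -0.27 with the software's ratio. Ccl2 had signals of 12794 in the control and 5396 in the Eif4g3 siRNA channel and a log2 ratio of -1.19, with an SD of 0.046 over 10 spots. Ccl8 had 4968 and 2094 and a ratio of -1.15. Ccl7 had 9373 and 4108 and a ratio of -1.12, with probes at -1.16 and -1.08. All 3 attract monocytes and lie in 1 cluster on chromosome 11 (mm8), where the probes of Ccl2 and Ccl7 are 9.8 kb apart and those of Ccl7 and Ccl8 69.4 kb. In light polysomes Ccl2, Ccl8 and Ccl7 had -0.18, 0.0037 and -0.69, and in heavy polysomes -0.15, 0.56 and -0.22. Below 0 were also Cklf at -0.94, Ccl9 at -0.59, Ccl25 at -0.43 and Cxcl12, a stromal survival factor for lymphocytes, at -0.32. Ccl5 at 0.23, Ccl27 at 0.05 and Ccl19, which guides T cells within lymph nodes, at 0.02 were the members above 0. Of 14 cytokine genes 6 lay above 0 and none passed 2-fold, with Tgfb3 at 0.64 and Vegfa at 0.52 the highest.

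Interferon-stimulated genes were mostly above 0, at low signal. Of 36 measured 31 lay above 0, against 50.4% of all members, with a median of 0.36. At 2-fold 1 was higher, against 0.429%. With the software's ratio the median was 0.65 and 14 were higher at 2-fold, against 151 of all 10943 members. The median was 0.24 over bright probes only and 0.17 without the background filter. The dimmer 50% of all members held 26 of them, where the offset compresses ratios most. Irgm, a GTPase of cell defence, had signals of 470 and 1446, a log2 ratio of 1.04 and a software ratio of 1.62 ± 0.18. Ifit3 had 0.98, Sp100 0.82 and Cxcl10 0.77, with software ratios of 1.80, 1.06 and 1.52. The membrane proteins Ifitm2 and Ifitm3 were the lowest, at -0.41 and -0.34. In light and heavy polysomes the list had medians of 0.70 and 0.52. Of 11 genes of class I antigen presentation 2 lay above 0, with a median of -0.15, and B2m, the invariant chain, had the lowest value at -0.72. B2m had 0.38 in light and 0.56 in heavy polysomes.

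Some genes were above background in 1 channel alone and have a bound in place of a ratio. It divides the bright channel's signal by the dim one's, or by the lowest signal among probes well above background where that is higher, and it is open to dye bias. In the Eif4g3 siRNA channel alone 591 genes were measured, of which 26 had a bound of 2-fold or more. Irf7, a transcription factor of the interferon response, was at least 2.77-fold higher, the interferon-induced GTPase Iigp1 at least 2.72-fold and Rab26, of vesicle traffic, at least 2.62-fold higher. In the control channel alone 406 genes were measured, 28 of them with such a bound. Upb1, of pyrimidine breakdown, was at least 3.93-fold lower after Eif4g3 siRNA, the calcium channel subunit Cacna2d1 at least 3.56-fold and the glutathione transferase Gstt2 at least 3.08-fold lower.

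Noncoding RNAs, which are not translated into known proteins, had a median of 0.36 over 12 measured, of which 10 lay above 0, and 0.24 without the background filter. Rmrp, the RNA of RNase MRP, had 0.72, with -0.25 in light and 1.40 in heavy polysomes. Mirg, of an imprinted locus, had 0.69 at signals of 225 and 636. Snhg8 was the lowest, at -0.53. Of 18 histone genes 2 lay above 0, with a median of -0.17 and the variant H2afz lowest at -0.85. This list had 0.08 in light and 0.36 in heavy polysomes. Of 25 genes of small nuclear ribonucleoproteins and Lsm proteins 9 lay above 0, with a median of -0.11, and Snrpd3, a core protein of the spliceosome, was lower at 2-fold (-1.05).

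Most other groups had medians closer to that of all members in the top fraction. Of 45 genes of collagens and other matrix 19 lay above 0 (median -0.08), and the 16 collagens had a median of -0.01, from Col6a3 at -0.77 to Col7a1 at 0.32. In heavy polysomes these 45 genes had a median of -0.40. Of 20 matrix proteases and inhibitors 6 lay above 0 (median -0.15, and -0.03 without the background filter), with the protease Plat lowest at -0.90. Of 17 glycolysis genes 14 lay above 0 with a median of 0.15, and of 12 genes of the hypoxia response 3 did, with Adm lowest at -0.67. The 8 subunit genes of the chaperonin CCT lay between 0.03 and 0.59. Of 11 tubulin genes 9 lay above 0, with a median of 0.25 and Tuba1c highest at 0.83. Medians were 0.08 over 21 genes of aminoacyl-tRNA synthetases, -0.05 over 35 of sterol and fatty acid synthesis, -0.02 over 46 of the cell cycle and replication, 0.03 over 32 of SR and hnRNP proteins and 0.01 over 41 of mRNA decay. In these 5 groups Cdk6 was the member past 2-fold. Of 10 HMG protein genes 7 lay above 0 with a median of 0.12, and Hmgn3 was the member past 2-fold.

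Deaf1, a regulator of tissue antigens in lymph node stroma, and the cell surface peptidase gene Anpep did not pass 2-fold. Deaf1 had signals of 240 in the control and 279 in the Eif4g3 siRNA channel, a log2 ratio of 0.15 and a software ratio of 0.22 ± 0.23. Anpep had 191 and 181, a log2 ratio of -0.01 and a software ratio of -0.08 ± 0.25. Both were dim, and the software's error exceeds each ratio.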

How the data were processed

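The deposited scanner files hold, for each spot and channel, a linear intensity that Agilent's Feature Extraction (version 10.5.1.1) wrote, per the file headers, with a log10 ratio of red over green, its error and a spot p-value. The log2 ratios of the authors' deposited table matched the files' processed signals to within 2.7e-06. Its column median is -0.09 for the top array, with centring not stated. Probe coordinates are on mm8, per the file headers, while RefSeq starts are on GRCm38.p6, and the builds were not mixed.

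Mean signals and background medians were corrected with limma 3.58.1 in R 4.3.3 (normexp, offset 50) and loess was run within the array, with control spots at weight 0. The 220 outlier spots were left out, and no spot was saturated. Spots of a probe and then measured probes of a gene were averaged. Of the files' gene names 19925 matched a current symbol, and clone names were not named. The light and heavy arrays, with 14094 and 14402 measured genes, were processed alike and came from the same pools.

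The threshold was 2-fold. Named genes were Eif4g1, Eif4g2, Eif4g3, Deaf1 and Anpep, the 15 highest and 15 lowest past 2-fold with a symbol, at least median signal and all probes on 1 side of 0, the 4 highest and 4 lowest of each list, and the eIF4F and Arp2/3 lists in full. Further genes, such as list members that alone lay on 1 side of 0, other chemokines and other TOP mRNAs, were named after their values were seen. Members and lists were chosen with earlier results of these data known. The search for CTTTC and the classes of signal were added after the data were seen. The steps were tested on simulated data, and 7 other settings were tried. Some members that the naming rule would name are not reported here.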

Additional observations from a re-analysis of the deposited data

Results flagged for a closer look

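With 1 array per fraction, the differences between fractions given here were not tested. Each is listed because the ratio in the top fraction and that in another fraction lay on opposite sides of 0. Lists needed at least 5 measured members and both medians at least 0.1 from 0. Named genes needed to pass 2-fold in the top fraction, with the other value beyond a limit set from the spread between probes. Smaller differences of sign are left out.

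Against light polysomes, the class I antigen presentation genes had a median of -0.15 in the top fraction and 0.23 in light polysomes. Noncoding RNAs had 0.36 and -0.15. Pabpc1 had 1.22 and -0.38.

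Against heavy polysomes, complex I had -0.37 in the top fraction and 0.12 in heavy polysomes. Complexes II to IV with ATP synthase had -0.35 and 0.28, but within them the 4 complex II genes had medians of -0.40 and -0.28. Mitochondrial protein import had -0.19 and 0.12. Small nuclear ribonucleoprotein and Lsm genes had -0.11 and 0.19, and histone genes -0.17 and 0.36. In a longer list of 10 markers of smooth muscle and pericytes, the 5 measured (Lmod1, Cspg4, Smtn, Synpo2 and Mcam) had 0.19 and -0.10. Arpc1a had 1.38 and -0.52, and Ccl8 had -1.15 and 0.56.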

How the results depend on the processing

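The number of calls depended on the background offset and on the ratio used. The 47 higher and 29 lower genes became 109 and 82 with a normexp offset of 0, 70 and 49 with an offset of 16, and 151 and 146 with the scanner software's ratio. Of the 47, 25 were higher by the software's ratio too, and of the 29, 28 were lower. Bright genes such as Rplp1, Fth1, Rps12, Fau and Pabpc1 were among those past 2-fold in the main values and not by the software's ratio. Under all 7 alternatives 17 genes stayed higher, of which 9 have a symbol (Anapc5, Anxa8, Arc, Arpc1a, Arpc1b, Dusp2, Egr1, Ercc1 and Rpsa), and 20 stayed lower. Eif4g3 had -0.73 with offset 0, -0.59 with offset 16 and -0.80 with the software's ratio. The median of ribosomal proteins was 0.30 with the software's ratio and between 0.43 and 0.53 under the other alternatives. That of oxidative phosphorylation ran from -0.46 to -0.31. All 23 lists with a median at least 0.1 from 0 kept its sign under each alternative. Without the background filter 27745 genes entered, and 35 were higher and 21 lower; Fbn1, Hmgn3, C1galt1c1 and Pabpc1 were then short of 2-fold. The slope of the ratios on the software's was 0.35 in the dimmer and 0.82 in the brighter 50% of genes.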
